A study of Arabidopsis thaliana with 12 samples.

Results

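The genes described here are those whose RNA differed between roots labelled trm4b-1 and wild-type roots (WT) while both grew on paraquat, a herbicide through which superoxide builds up in cells. They are every gene the authors listed for that comparison, 75 of 33602 genes tested (0.223%), and the listing holds genes with an adjusted p under 0.1. TRM4B encodes a methyltransferase that puts 5-methylcytosine into RNA. Of the 75 genes, 48 had an adjusted p under 0.05 (0.143% of those tested), and "changed", "higher" and "lower" are used below for these unless a value is given. They split into 24 higher and 24 lower in the libraries labelled trm4b-1 (0.0714% of tested genes each way).

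All 12 libraries came from roots of Col-0 seedlings on 1/2 MS plates, taken 6 days after germination, as total RNA from which ribosomal RNA had been removed. The 4 groups of 3 libraries were WT and trm4b-1 without paraquat, and WT and trm4b-1 with 0.01 uM paraquat in the medium. The labels do not say what kind of mutation trm4b-1 is or how many plants a library pools. The deposited tables compare groups, so values and depths per library were not analysed here, and neither was the root label against marker levels. Fold changes were read as log2 values, trm4b-1 minus WT unless said otherwise, and the ± after a difference is its standard error, worked out from the authors' fold change and p.

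Of the 75 listed genes, 14 act in the uptake, delivery or use of copper or encode microRNAs tied to it. With FSD1, an iron superoxide dismutase gene whose RNA depends on copper supply, they make the 15 called copper genes here, and their biology is given first. In Arabidopsis, roots short of copper turn on a set of genes through the transcription factor SPL7, which binds DNA with the core letters GTAC. Reductases of the FRO family and COPT transporters then bring copper into the cell. MicroRNAs made at the same time lower the mRNAs of dispensable copper proteins, and an iron superoxide dismutase takes over from the copper/zinc enzymes. When copper is ample, the set is off and the copper/zinc enzymes are made.

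The 4 microRNA genes among the 75 carry 3 different mature sequences, shown because their known targets include genes that differed the other way. They are written 5′ to 3′ with the seed (bases 2 to 8) in capitals, as read from the RefSeq annotation of TAIR10.1.
miR408-3p: aUGCACUGccucuucccuggc
miR398b-3p and miR398c-3p: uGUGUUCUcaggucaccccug
miR857: uUUUGUAUguugaagguguau
The seeds of the 3 sequences differ, and miR398b-3p and miR398c-3p are identical over all 21 bases. Sites for them were then sought in the longest RefSeq transcript of each of 31346 genes, without gaps. The plantacyanin gene ARPN pairs with miR408-3p at 19 of 21 bases, in its coding sequence on chromosome 2 (TAIR10.1, 827696 to 827716, minus strand). CSD1, a copper/zinc superoxide dismutase gene, pairs with miR398 at 17 of 21 bases in its 5′ untranslated region on chromosome 1 (2827177 to 2827685, plus strand, across an intron). Both sites are given with paired bases in capitals.
ARPN site: cCaAGGGAAGAGGCAGUGCAU
CSD1 site: aAGGGGUuuCCUGAGAuCACA
At most 4 unpaired bases were found in 11 genes for miR408-3p (0.0351% of those searched) and in 4 genes for miR398 (0.0128%). CCS, the copper chaperone of superoxide dismutase, had 6 unpaired bases at its best site for miR398, and no site in the copper protein genes searched came within that limit for miR857.

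**Figure D1:**
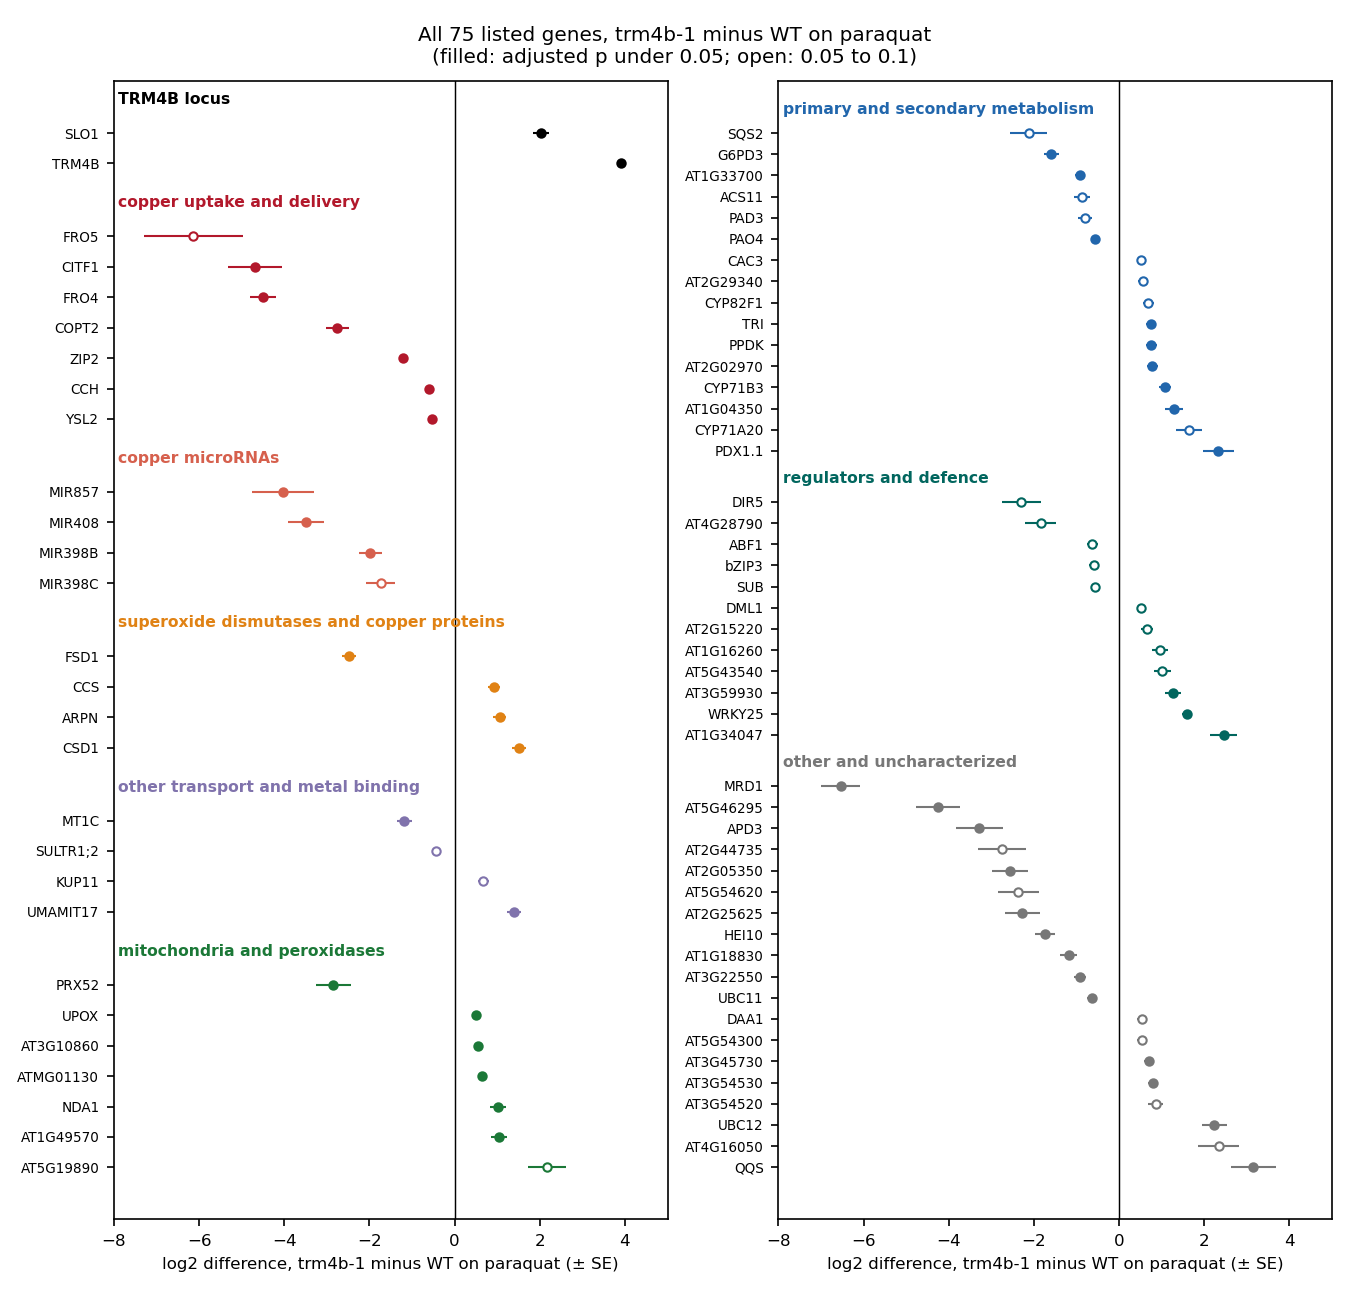
Log2 difference (horizontal axis, trm4b-1 minus WT on paraquat) of the 75 listed genes, grouped by function. Points are the authors' deposited values, bars are standard errors, and open points have an adjusted p between 0.05 and 0.1. All 11 genes of copper uptake, delivery and copper microRNAs lie left of 0, and 3 of the 4 genes below them lie right of it.

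Genes of copper uptake and delivery were lower in the libraries labelled trm4b-1 on paraquat. Of 20 such genes in a list drawn up with earlier results of these data known, 6 were lower and 1 higher (CCS), which is 35% of the list beside 0.143% of all tested genes. FRO4, a metal reductase of the root surface, was lower by 22.6-fold (-4.50 ± 0.31, adjusted p = 1.99e-06) in the authors' deposited table. CITF1, a transcription factor that acts on FRO4 and FRO5 in copper shortage, was lower by 25.8-fold (-4.69 ± 0.64, adjusted p = 0.00350) in the authors' deposited table. COPT2, a high-affinity copper transporter gene, was lower by 6.73-fold (-2.75 ± 0.28, adjusted p = 0.000212) in the authors' deposited table. These 3 are the largest differences of the group that passed the threshold.

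The other members of the group differed less. ZIP2, a metal transporter of the ZIP family, had -1.21 ± 0.10 (adjusted p = 3.32e-05) in the authors' deposited table. CCH, a copper chaperone gene, had -0.59 ± 0.08 (adjusted p = 0.00214) and YSL2, a transporter of metals bound to nicotianamine, -0.52 ± 0.09 (adjusted p = 0.0294) in the authors' deposited table. FRO5, the tandem copy of FRO4, had the lowest value of the group and the largest error of all 75 genes (-6.13 ± 1.16, adjusted p = 0.0581 in the authors' deposited table), so it did not pass. Reads of FRO4 and FRO5 could have been shared between these near copies. SPL7 and the transporter genes COPT1, COPT3, COPT4, COPT5 and COPT6 were not listed, nor were the copper pumps HMA1, PAA1, PAA2, HMA5 and RAN1 or the chaperone ATX1.

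Copper microRNA genes were lower as well. In this RNA the reads come from precursors or primary transcripts, not from the mature microRNAs shown above. MIR408 was lower by 11.3-fold (-3.49 ± 0.42, adjusted p = 0.00117), MIR398B by 3.93-fold (-1.98 ± 0.27, adjusted p = 0.00350) and MIR857 by 16.3-fold (-4.03 ± 0.73, adjusted p = 0.0419) in the authors' deposited table. MIR398C, which lies 3488 bases from MIR398B on the same strand, had -1.73 ± 0.34 and did not pass (adjusted p = 0.0713 in the authors' deposited table). MIR397A, MIR397B and MIR398A were not listed.

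Superoxide dismutase genes moved in opposite directions. FSD1, the iron superoxide dismutase, was lower by 5.58-fold (-2.48 ± 0.16, adjusted p = 1.39e-06) in the authors' deposited table. CSD1, its cytosolic copper/zinc counterpart and the gene with the miR398 site shown above, was higher by 2.86-fold (1.52 ± 0.17, adjusted p = 0.000665) in the authors' deposited table. CCS, which hands copper to that enzyme, was higher by 0.92 ± 0.14 (adjusted p = 0.0104), and ARPN, the blue copper protein with the miR408 site, by 1.06 ± 0.14 (adjusted p = 0.00350) in the authors' deposited table. Thus 1 iron enzyme was lower and 3 genes for copper proteins or their chaperone were higher. The other 6 superoxide dismutase genes, CSD2 and CSD3 among them, were not listed, and neither were the other 11 of 12 copper protein genes in a further list, which include 7 laccases. Among those 11, LAC3, LAC12, LAC13 and UCC2 pair with miR408-3p at 17 of 21 bases. Of 27 iron deficiency and storage genes, none was listed in this comparison, and with 0.223% of all tested genes listed this count does not set the iron genes apart.

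The same 15 copper genes were then followed on control medium. Its 6 libraries do not enter the paraquat differences, but the authors' fit shares its variance over all 12 libraries. Standard errors and p-values on the 2 media are thus not independent. On control medium none of the 15 was listed, beside 3.65% of all tested genes listed and 2.03% changed. With so small a share listed, this count does not set the 15 genes apart. For 14 of them the control value could be rebuilt exactly from the authors' deposited tables, because each comparison is a sum of others. These rebuilt differences ran from -1.11 to 0.93, and the 95% interval held 0 in 10 of the 14. The rebuilding used the interaction, in which all 14 were listed. All 14 thus had an interaction with an adjusted p under 0.1, the limit for listing. Listing in the interaction favours control values that are small or opposite in sign to the paraquat difference. Neither this count nor the signs given below are independent of that listing. FRO4 had -0.34 ± 0.17, COPT2 -0.13 ± 0.19, MIR408 0.42 ± 0.25 and FSD1 0.21 ± 0.15 on control medium, as rebuilt from the authors' deposited tables. The intervals of 4 genes did not hold 0. CITF1 was at 0.93 ± 0.33, CSD1 at -0.54 ± 0.17 and CCS at -0.30 ± 0.14, each opposite in sign to its difference on paraquat, and FRO5 was at -1.11 ± 0.33, as rebuilt from the authors' deposited tables. MIR857 has no control value in the tables used here. These 15 were chosen by their difference on paraquat, and other copper genes did differ on control medium. Of the 12 other copper protein genes, 3 were lower there (25% of the list, beside 2.03% of all tested genes), namely LAC3 (-0.81 ± 0.20), LAC7 (-0.81 ± 0.16) and LAC13 (-1.14 ± 0.17) in the authors' deposited table. Of the 20 uptake and delivery genes, the transporter gene COPT5 was lower (-0.85 ± 0.16, adjusted p = 0.0142 in the authors' deposited table).

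**Figure D2:**
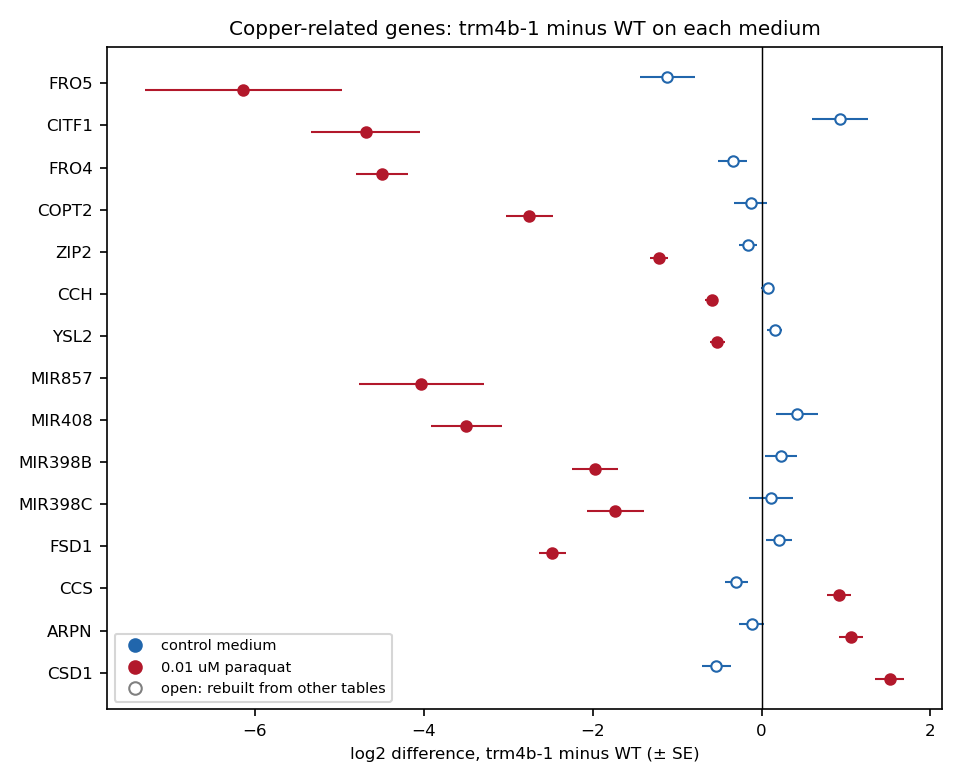
Log2 difference between genotypes (horizontal axis, trm4b-1 minus WT) of the 15 copper-related genes on control medium (blue) and on paraquat (red), with standard errors. Open points were rebuilt from the other tables, and MIR857 has no control value. Red points lie from -6.13 to 1.52, while blue points lie from -1.11 to 0.93.

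The authors' interaction tests whether the genotype difference itself differs between the media. It passed at an adjusted p under 0.05 for 12 of the 13 changed copper genes, beside 0.318% of all tested genes, and was listed for 14 of the 15, beside 0.943%. Interaction values in the authors' deposited table were -5.62 ± 0.72 for CITF1 (adjusted p = 0.00181), -4.15 ± 0.35 for FRO4 (adjusted p = 4.04e-05), -2.69 ± 0.22 for FSD1 (adjusted p = 4.04e-05) and 2.05 ± 0.24 for CSD1 (adjusted p = 0.000844). MIR857 was not listed in the interaction. The interaction contains the same paraquat libraries that put these genes on the list, so this count is not independent of the listing.

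The 2 paraquat comparisons within a genotype show in which group the levels moved, and each shares libraries with the genotype comparison. In the libraries labelled trm4b-1, 11 of the 15 copper genes fell with paraquat and 3 rose (beside 4.33% and 4.72% of all tested genes, 9.05% in all). FRO4 fell by 4.50 ± 0.31 (adjusted p = 1.43e-07), FSD1 fell by 2.53 ± 0.16 (adjusted p = 6.24e-08) and COPT2 fell by 2.51 ± 0.28 (adjusted p = 2.00e-05) in the authors' deposited table, while CSD1 rose by 1.70 ± 0.17 (adjusted p = 6.47e-06). In WT, 4 of the 15 were listed (21.6% of all tested genes were) and all 4 changed (17% did), 2 upward (7.99%) and 2 downward (9.01%). MIR857 rose by 2.88 ± 0.67 (adjusted p = 0.00673) and MIR408 by 0.89 ± 0.24 (adjusted p = 0.0190) in the authors' deposited table, whereas FRO5 fell by 1.97 ± 0.38 and CCS fell by 0.64 ± 0.14. The other 11 genes had WT intervals that held 0, with rebuilt values such as -0.35 ± 0.17 for FRO4, 0.11 ± 0.20 for COPT2 and 0.16 ± 0.15 for FSD1 from the authors' deposited tables. CCS and MIR408 thus changed in opposite directions in the 2 genotypes. Markers of other cells moved in the WT comparison too: 16 of 20 photosynthesis genes and 8 of 9 root hair genes fell with paraquat in WT, against 1 and 0 in trm4b-1. Their part in these results was not tested. The 15 genes were themselves chosen by the genotype difference on paraquat. Counts over whole lists are given as well, but these lists hold the 15 genes and were drawn up with earlier results known. In trm4b-1, the uptake and delivery, microRNA and superoxide dismutase genes that fell were all among the 15. The list counts are thus not free of that choice. Of the 20 genes of copper uptake and delivery, 1 rose and 5 fell with paraquat in WT (30% of the list, beside 17% of all tested genes), and 2 rose and 7 fell in trm4b-1 (45%, beside 9.05%). Of the 7 copper microRNA genes, 2 rose in WT (28.6%) and 3 fell in trm4b-1 (42.9%). Of the 8 superoxide dismutase genes, 0 changed in WT, and 1 rose and 1 fell in trm4b-1 (25%). Of the 12 other copper protein genes, 1 rose and 4 fell in WT (41.7%), and 4 rose in trm4b-1 (33.3%).

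**Figure D3:**
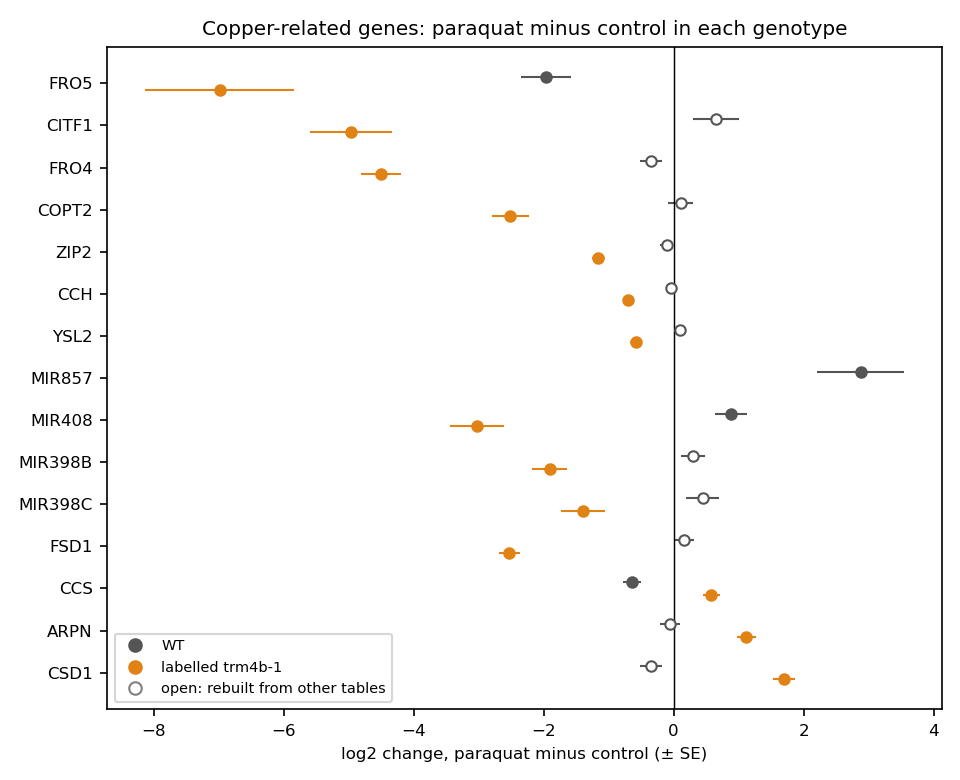
Log2 change with paraquat (horizontal axis, paraquat minus control) of the 15 copper-related genes in WT (grey) and in libraries labelled trm4b-1 (orange), with standard errors. Open points were rebuilt from the other tables, and MIR857 has no value in trm4b-1. Among orange points 11 lie left of 0 and 3 right of it, and most grey points lie near 0.

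Since members of the copper set moved together, the 250 bases before each annotated gene start were searched for GTAC, a motif that reads alike on both strands. It was present in 7 of the 12 lower copper genes and in all 3 higher ones, beside 34.6% of 33054 genes. Windows with 4 or more copies belong to 0.284% of genes, and to 2 of the 12, MIR398B with 5 and MIR408 with 4. Both are printed here with the motif in capitals, read in the direction of transcription from TAIR10.1, at chr5:4690772-4691021 for MIR398B and chr2:19319564-19319813 for MIR408, both on the plus strand.
MIR398B: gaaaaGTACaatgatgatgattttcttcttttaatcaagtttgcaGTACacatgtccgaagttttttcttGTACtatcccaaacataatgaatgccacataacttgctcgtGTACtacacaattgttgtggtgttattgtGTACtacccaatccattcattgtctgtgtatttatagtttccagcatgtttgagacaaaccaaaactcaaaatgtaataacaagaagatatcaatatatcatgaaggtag
MIR408: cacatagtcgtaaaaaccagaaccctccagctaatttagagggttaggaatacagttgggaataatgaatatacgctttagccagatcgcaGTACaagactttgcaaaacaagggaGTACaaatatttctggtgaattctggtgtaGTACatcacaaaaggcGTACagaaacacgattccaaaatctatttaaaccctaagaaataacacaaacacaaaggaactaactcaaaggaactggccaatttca
The copies lie between 245 and 110 bases before the start of MIR398B and between 159 and 88 bases before that of MIR408. FRO4, FRO5, COPT2, CITF1 and MIR857 had no GTAC in this window. Of the 59 other nuclear genes on the list, 20 had the motif (33.9%). RefSeq start and end both equal those in the deposited tables for 11 of the 74 nuclear genes on the list, so these windows depend on the annotation.

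Outside the copper genes, 35 genes changed, and 16 of these were changed in the same direction on control medium (2.03% of all tested genes changed there, 0.839% higher and 1.19% lower). The first is TRM4B itself, whose RNA was above WT in libraries labelled trm4b-1 (3.90 ± 0.08 on paraquat and 2.89 ± 0.08 on control medium in the authors' deposited tables). Every direction given here is therefore that of libraries labelled trm4b-1. Which stretch of TRM4B the reads cover was not analysed here. SLO1, a mitochondrial RNA editing factor gene that starts 141 bases away on the other strand, was higher by 2.03 ± 0.18 and 2.24 ± 0.21 in the same tables. Of the other 6 RNA cytosine methyltransferase genes, none was listed on paraquat. With 0.223% of all tested genes listed, this count does not set them apart.

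Several of the genes that differed on both media had differences of like size. MRD1, a gene first described by its response to methionine, had the largest difference of all 75, 93.2-fold lower (-6.54 ± 0.46) on paraquat and -7.79 ± 0.52 on control medium in the authors' deposited tables. The uncharacterized gene AT5G46295 had -4.26 ± 0.52 and -3.69 ± 0.53, and the transcription factor gene WRKY25, known from heat and salt stress, 1.59 ± 0.11 and 1.78 ± 0.11, in the authors' deposited tables. The meiotic crossover gene HEI10 had -1.74 ± 0.23 and -2.03 ± 0.23, and the polyamine oxidase gene PAO4 -0.57 ± 0.09 and -0.63 ± 0.09, in the authors' deposited tables. None of these 5 genes was listed in the interaction, and the interval of the difference between media held 0 for each. That interval reached from -0.52 to 0.14 for WRKY25 and from -0.20 to 0.33 for PAO4. It was wider, from -0.23 to 2.71 for MRD1 and from -2.16 to 1.02 for AT5G46295, all as rebuilt from the authors' deposited tables. NDA1 (-1.51 to -0.03, rebuilt) and AT1G33700 (0.32 to 1.01) did not pass the interaction either, but their intervals left out 0.

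**Figure D4:**
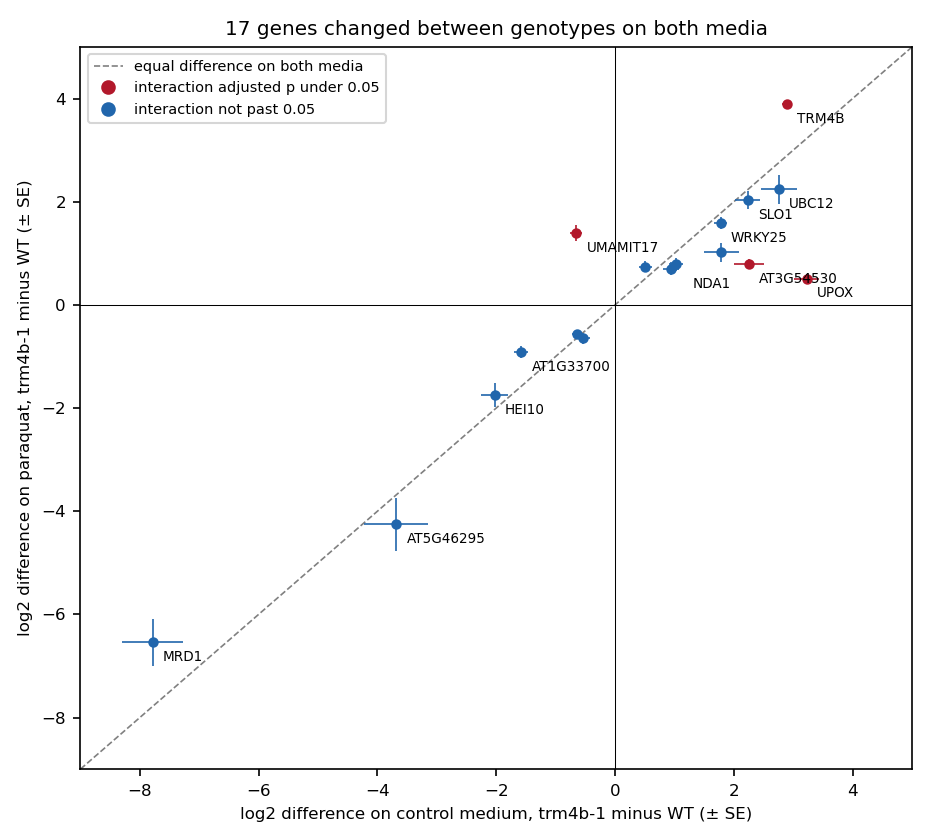
Log2 difference on control medium (horizontal axis) against that on paraquat (vertical axis), both trm4b-1 minus WT with standard errors, for the 17 genes changed on both media. Red points passed the interaction test and the dashed line marks equal differences. UPOX and AT3G54530 lie below the line, TRM4B above it, and UMAMIT17 lies at -0.65 on control medium and 1.39 on paraquat.

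For 4 of the 17 genes changed on both media the interaction passed. UPOX, a marker gene of oxidative stress, was higher by 0.51 ± 0.09 on paraquat and by 3.23 ± 0.21 on control medium in the authors' deposited tables. Paraquat raised UPOX by 4.65 ± 0.20 in WT and by 1.93 ± 0.11 in trm4b-1 in the authors' deposited tables. The uncharacterized gene AT3G54530 was higher by 0.79 ± 0.10 on paraquat and by 2.25 ± 0.25 on control medium in the authors' deposited tables. UMAMIT17, an amino acid transporter family gene, was the gene of the 17 with opposite signs, at 1.39 ± 0.16 on paraquat and -0.65 ± 0.10 on control medium in the authors' deposited tables. It fell with paraquat in both genotypes, by 3.68 ± 0.15 in WT and by 1.64 ± 0.12 in trm4b-1, in the authors' deposited tables. TRM4B was the other gene of the 4.

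Mitochondrial and peroxidase genes made up 6 of the changed genes, 5 higher and 1 lower. Among 17 oxidative and mitochondrial stress genes, UPOX and NDA1 were higher on paraquat (11.8% of the list, beside 0.0714% of all tested genes), and 7 were higher on control medium (41.2%, beside 0.839%). NDA1, an alternative NAD(P)H dehydrogenase of the inner mitochondrial membrane, had 1.02 ± 0.18 on paraquat and 1.79 ± 0.30 on control medium in the authors' deposited tables. AT3G10860, a subunit of the cytochrome bc1 complex, had 0.56 ± 0.09, the mitochondrial genome's ATMG01130 0.64 ± 0.10, and the peroxidase gene AT1G49570 1.05 ± 0.19 in the authors' deposited table. PRX52, a class III peroxidase of the cell wall, was lower by 7.19-fold (-2.85 ± 0.41, adjusted p = 0.00676) in the authors' deposited table. Paraquat raised PRX52 by 3.49 ± 0.43 in WT in the authors' deposited table, and its rebuilt change in trm4b-1 was 0.11 ± 0.50.

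Among other transport and metal genes, the metallothionein gene MT1C, whose small protein binds metals, was lower by 1.18 ± 0.18 on the log2 scale (-1.18, adjusted p = 0.00802) in the authors' deposited table. MT1C fell by 1.77 ± 0.18 with paraquat in trm4b-1 in the authors' deposited table, and its rebuilt WT change was 0.06 ± 0.18. On control medium MT1C had 0.64 ± 0.18, which did not pass (adjusted p = 0.0857 in the authors' deposited table).

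Among metabolic genes, 16 were listed and 9 changed, 6 higher and 3 lower. The vitamin B6 synthesis gene PDX1.1 was higher by 5.01-fold (2.33 ± 0.37, adjusted p = 0.0134) in the authors' deposited table, and the other 5 genes of that pathway were not listed. PDX1.1 fell by 1.72 ± 0.38 with paraquat in WT in the authors' deposited table, against a rebuilt 0.62 ± 0.29 in trm4b-1. The oxygenase family gene AT1G04350 had 1.29 ± 0.21, the cytochrome P450 gene CYP71B3 1.08 ± 0.14, the apyrase family gene AT2G02970 0.78 ± 0.12, PPDK, which makes phosphoenolpyruvate from pyruvate, 0.76 ± 0.12 and the tropinone reductase family gene TRI 0.74 ± 0.11 in the authors' deposited table. On the lower side stood G6PD3, a plastid glucose-6-phosphate dehydrogenase (-1.59 ± 0.18, adjusted p = 0.000665), the glucosidase family gene AT1G33700 (-0.92 ± 0.12) and PAO4 in the authors' deposited table. G6PD3 also had -0.57 ± 0.16 on control medium in the authors' deposited table, which did not pass (adjusted p = 0.0911).

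Beside WRKY25, both regulator or defence genes that changed encode defensin-like peptides. AT1G34047 was higher by 5.49-fold (2.46 ± 0.32) and AT3G59930 by 2.40-fold (1.26 ± 0.19) in the authors' deposited table. AT3G59930 fell with paraquat in both genotypes, by 2.38 ± 0.18 in WT and by 0.89 ± 0.16 in trm4b-1, in the authors' deposited tables.

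The remaining changed genes have other or unknown functions. QQS, an orphan gene that acts on starch and protein content, was higher by 8.91-fold (3.16 ± 0.54, adjusted p = 0.0232) in the authors' deposited table, with -0.78 ± 0.55 rebuilt for control medium. The ubiquitin-conjugating enzyme gene UBC12 was higher by 2.24 ± 0.29 and its tandem copy UBC11 lower (-0.65 ± 0.11) in the authors' deposited table, and on control medium they had 2.75 ± 0.30 and -0.54 ± 0.11. Reads could be shared between these copies. APD3, a RING-type protein gene, had -3.29 ± 0.55, AT2G05350 -2.56 ± 0.41, AT2G25625 -2.27 ± 0.41, AT1G18830 -1.18 ± 0.20, AT3G22550 -0.92 ± 0.15 and AT3G45730 0.70 ± 0.12 in the authors' deposited table. APD3, AT2G05350 and AT3G22550 rose in WT with paraquat, by 2.18 ± 0.52, 1.04 ± 0.34 and 1.27 ± 0.15, in the authors' deposited table. AT1G18830 rose with paraquat in both genotypes, by 4.77 ± 0.39 in WT and by 3.72 ± 0.42 in trm4b-1. AT3G45730 also rose in both, by 0.63 ± 0.14 and 0.39 ± 0.12, and AT2G25625 fell by 1.90 ± 0.42 in trm4b-1, in the authors' deposited tables.

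Some listed genes are neighbours, though how many such pairs other sets of genes hold was not counted. The 75 genes include 8 pairs that lie within 10000 bases of each other on a chromosome with at most 1 gene between, and 6 pairs differed in the same direction. They are TRM4B with SLO1, MRD1 with HEI10, FRO4 with FRO5, MIR398B with MIR398C, TRI with AT2G29340, and AT3G54520 with AT3G54530. MRD1 and HEI10 overlap by 1446 bases on opposite strands in the deposited coordinates. Use of strand in counting is not given in the sources used here, so their reads cannot be told apart. The pairs with opposite directions were UBC11 with UBC12, and APD3 with PDX1.1, which are 523 bases apart on the same strand.

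The other 27 listed genes, 14 higher and 13 lower, had adjusted p values between 0.05 and 0.1. Their sizes overlapped with those of the changed genes, with a median absolute log2 difference of 0.86 beside 1.34 and a median standard error of 0.18 for both sets. Just inside the threshold stood AT2G25625, MIR857 and UPOX (adjusted p = 0.0419, 0.0419 and 0.0474), and just outside it SUB, CYP82F1 and FRO5 (0.0522, 0.0522 and 0.0581), in the authors' deposited table. After FRO5 the largest of the 27 were AT2G44735 (-2.74 ± 0.56), AT5G54620, an ankyrin repeat gene (-2.37 ± 0.48), AT4G16050 (2.34 ± 0.48) and the dirigent gene DIR5 (-2.29 ± 0.45) in the authors' deposited table. Of the 27, DAA1, an ATPase family gene (0.53 ± 0.11), was changed in the same direction on control medium (0.80 ± 0.13) in the authors' deposited tables. CYP82F1 had 0.69 ± 0.13 on paraquat and -0.50 ± 0.12 on control medium (adjusted p = 0.0486) in the authors' deposited tables. The 27 also hold regulators with values in the authors' deposited table of -0.63 ± 0.13 for ABF1, a factor of abscisic acid signalling, -0.58 ± 0.12 for bZIP3, -1.85 ± 0.35 for the basic helix-loop-helix gene AT4G28790 and 0.53 ± 0.10 for the DNA demethylase gene DML1. Transporters among the 27 were the potassium transporter gene KUP11 (0.67 ± 0.13) and the sulfate transporter gene SULTR1;2 (-0.44 ± 0.09) in the authors' deposited table. Enzyme genes were CYP71A20 (1.64 ± 0.31), SQS2 (-2.12 ± 0.44), the ethylene synthesis gene ACS11 (-0.87 ± 0.18) and the peroxidase gene AT5G19890 (2.17 ± 0.44) in the authors' deposited table. The zinc finger gene AT5G43540 had 1.01 ± 0.20, AT5G54300 0.53 ± 0.10, AT3G54520 0.86 ± 0.18 and AT2G29340 0.56 ± 0.11 in the authors' deposited table. Of the 27, 7 passed the interaction: AT1G16260, AT2G15220, AT5G54620, bZIP3, CAC3, CYP82F1 and PAD3.

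None of 20 photosynthesis genes (shoot tissue), 9 root hair genes or 6 genes of stele, endodermis and meristem was listed on paraquat, where 0.223% of all tested genes were listed, so these counts do not differ from the background. On control medium 8 of the 9 root hair genes and 3 of the 20 photosynthesis genes were lower between the genotypes, beside 1.19% of all tested genes, and their part in the control values above was not tested. In bulk RNA, fewer cells of a type and less RNA per cell cannot be told apart.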

How the data were processed

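RNA of 12 root samples was compared in 4 groups of 3, assigned from the labels. Trimmomatic, TopHat and limma are named without versions in the submitters' processing notes, with TAIR10 as the build. How reads were counted, scaled and filtered, and whether strand was used, is not given in the sources used here. What the authors deposited is 5 comparison tables. Per the file headers, each gene with an adjusted p under 0.1 has a log fold change (read as log2 by limma's convention), p-values before and after adjustment, Storey's q-value, and exon coordinates. The replicates are called biological in the series' design text. Depth per sample is unknown.

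The number of tests, 33602, was recovered from adjusted p times rank over p. Total degrees of freedom (15.3) were those at which the interaction's variance equals the sum of its parts in 96 genes, and standard errors follow from fold change and p. Unlisted contrasts were rebuilt as sums of listed ones. This was tested on simulated data. Calls are the authors' adjusted p under 0.05. Names came from RefSeq (TAIR10.1), which matched 74 of the 75 genes; miRNA, site and promoter sequences were read from it, while gene distances use the deposited coordinates. All 75 listed genes are covered, with the changed ones described by function and the rest by count and range. The 75 members, 12 lists (147 entries) and classes were chosen with earlier results of these data known, so lists carry counts and no set test. Calculations ran in Python 3.11.15 with scipy 1.17.1, on tables read with pandas 2.3.3 and numpy 2.4.6, and matplotlib 3.10.9 drew the figures. Alternatives were other thresholds, Holm adjustment, a log2 limit of 1, leaving out organelle genes and rebuilt values.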

Additional observations from a re-analysis of the deposited data

Results flagged for a closer look

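For 29 of the 75 listed genes the difference between genotypes itself differed between paraquat and control medium, by the authors' interaction test at an adjusted p under 0.05 (0.318% of all tested genes passed). Each value below is the interaction in the authors' deposited table, the log2 difference between genotypes on paraquat minus that on control medium. The paraquat libraries that put these genes on the list enter the interaction too.

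Among copper genes that were lower on paraquat, the interaction was -5.62 ± 0.72 for CITF1, -4.15 ± 0.35 for FRO4, -3.92 ± 0.49 for MIR408, -2.69 ± 0.22 for FSD1, -2.62 ± 0.34 for COPT2 and -2.20 ± 0.33 for MIR398B in the authors' deposited table. ZIP2, YSL2 and CCH had smaller ones of -1.05 ± 0.15, -0.68 ± 0.13 and -0.66 ± 0.11. Copper genes that were higher had 2.05 ± 0.24 for CSD1, 1.22 ± 0.20 for CCS and 1.17 ± 0.21 for ARPN, and the metallothionein gene MT1C had -1.82 ± 0.25, in the authors' deposited table.

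Positive interactions outside the copper genes were those of QQS (3.94 ± 0.77), UMAMIT17 (2.04 ± 0.19), AT3G59930 (1.48 ± 0.25), PPDK (1.05 ± 0.19), TRM4B (1.01 ± 0.11) and ATMG01130 (0.79 ± 0.15) in the authors' deposited table. Negative ones were those of PRX52 (-3.37 ± 0.66), UPOX (-2.72 ± 0.23) and AT3G54530 (-1.46 ± 0.27) in the authors' deposited table.

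The other 7 of the 29 had an adjusted p between 0.05 and 0.1 on paraquat. The interaction was 1.50 ± 0.25 for the secretory protein gene AT2G15220, 1.39 ± 0.27 for the wall-associated kinase gene AT1G16260, 1.18 ± 0.18 for CYP82F1 and 0.86 ± 0.15 for the fatty acid synthesis gene CAC3 in the authors' deposited table. It was -3.47 ± 0.68 for AT5G54620, -1.47 ± 0.24 for PAD3, an enzyme of camalexin synthesis, and -0.95 ± 0.16 for bZIP3 in the authors' deposited table.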

How the results depend on the processing

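The 48 changed genes became 26 at an adjusted p under 0.01, 75 at an adjusted p under 0.1 and 19 with Holm adjustment, while a Storey q under 0.05 gave 48, a log2 limit of 1 gave 33 and leaving out organelle genes 47. Of the copper genes 10 stayed under 0.01 and 7 passed Holm adjustment. The count of listed genes changed in the interaction was 29, and 13 at an adjusted p under 0.01. At an adjusted p under 0.01, the changed genes of 3 lists also moved, from 2 to 0 for oxidative and mitochondrial stress, from 1 to 0 for vitamin B6 synthesis and from 2 to 1 for the UBC8 group. The count changed in the same direction on control medium was 17, with 15 and 20 at adjusted p under 0.01 and 0.1. Rebuilt values equalled the deposited ones to rounding in all 16 genes where other tables allowed the comparison. Because the comparisons are sums of each other, this checks the arithmetic only. No paired analysis was possible because the tables hold no values per sample, and leaving out single replicates was not run for the same reason. With 3 libraries a group, genes with large standard errors, such as FRO5, are limited in precision.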
